A study of Mus musculus with 4 samples.

Results

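The Hox genes encode homeodomain transcription factors that lie in 4 clusters of the mouse genome, and they were examined here as markers of body position in extracts of mouse middle ears. Within a cluster the genes are numbered by paralogue, from 1 at the anterior end to 13 at the posterior end, and lower numbers are switched on earlier and nearer to the head in the embryo. Many adult tissues keep part of the Hox pattern of the place where their cells arose, and the genes of low number have known roles in the hindbrain and in the pharyngeal arches that form the ear ossicles. Members were all array probes whose RefSeq accession belongs to a mouse gene of the Hoxa, Hoxb, Hoxc or Hoxd cluster. This gave 39 genes of the 20971 named genes on the array, measured by 44 of 39429 probes. There were 11 genes in the Hoxa cluster on chromosome 6, 10 in Hoxb on chromosome 11, 9 in Hoxc on chromosome 15 and 9 in Hoxd on chromosome 2.

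The study asked how inhaled diesel exhaust particles (DEPs) change gene expression in the middle ear. Male BALB/c mice aged 6 to 10 weeks breathed DEPs for 1 h daily over 5 days, with killing on day 14, and the labels describe the control ears as having had no treatment. The study used 9 mice in all, and how many stand behind 1 extract is not given in the sources used here. RNA from 8 extracts was hybridised to 4 two-colour arrays of 1 slide. On every array the source names of the labels put the DEP ear in the red dye Cy5 and the control ear in the green dye Cy3, although the same labels list the treatments of both ears under the red channel. No array had its dyes swapped, so DEP exposure and any preference of a probe for 1 dye cannot be told apart. All ratios are DEP over control by these source names, and this direction is opposite to the one the study states for genes it names. Among them Slc1a2, which the study lists as upregulated, had a mean log2 ratio of -1.61 here. The study also reports qRT-PCR of CHRM1, EPO, ESR1, SOS1, CD4 and IFNA1 in its own direction.

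The tissue was checked against marker genes before the Hox genes were read. All 10 listed markers of airway-type epithelium, the lining of the middle ear, were detected in all 8 extracts. The extracts also held RNA of other tissues in unequal amounts. The 14 listed neuron markers, all of them on the array, had median log2 ratios of -2.40, -1.43, -0.57 and 0.30 on arrays 1 to 4, with summed signals of 25850 to 37940 in the DEP ears and 28880 to 105800 in the control ears. Those of the 5 skin epidermis markers on the array, of 6 listed, were 2.95, 0.31, 0.07 and -0.85, with summed signals of 30590 to 275100 in the DEP ears and 36390 to 50990 in the control ears. Of these markers, 13 of the 14 for neurons and all 5 for skin were detected in all 8 extracts. In whole-tissue extracts such as these, fewer cells of a type and less RNA per cell cannot be told apart.

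Hox genes of low paralogue number were detected more often than those of high number. A gene was read from its brightest probe, and it counted as detected where the image software marked that probe as well above background. Only 9 of the 39 Hox genes (23.1%) were detected in both channels on all 4 arrays, against 56.7% of all 32360 genes on the array. By the software's less strict flag for a positive and significant signal there were 18 Hox genes (46.2%), against 68.5% of all genes. The 9 included Hoxa2, Hoxb2, Hoxa3, Hoxa4, Hoxb4, Hoxb6, Hoxa7 and Hoxd8, and none had a paralogue number above 8. A further 13 genes were detected in some extracts, and 17 (43.6%) were detected in no extract, against 26.7% of all genes. The weakest spot that the software called well above background had a Cy5 signal of 31.1, 20.2, 16.0 and 19.2 on arrays 1 to 4. In Cy3 it was 23.3, 20.8, 36.5 and 33.2, so a Hox signal below these levels did not count as detected by this flag.

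**Figure D1:**
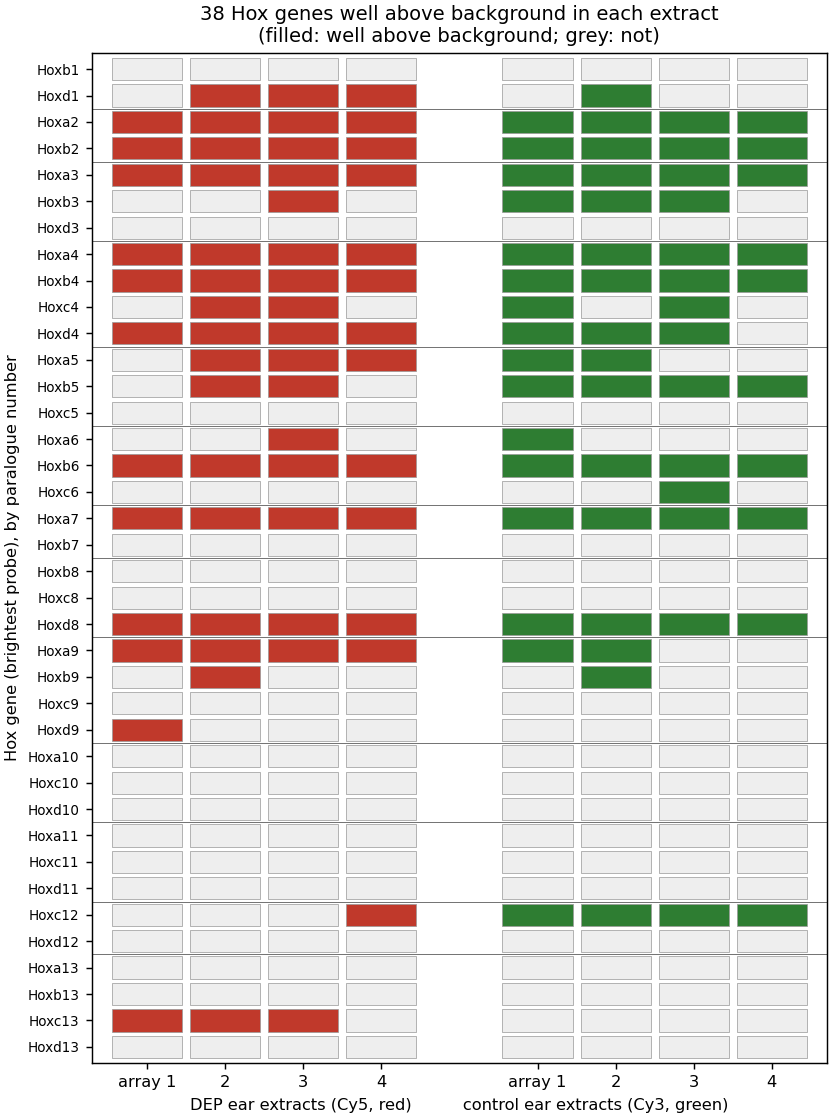
Detection of 38 Hox genes in the 8 extracts, with genes in rows ordered by paralogue number and extracts in columns (red, DEP ear in Cy5; green, control ear in Cy3; grey, not well above background). Filled cells lie mostly in the upper part, and the rows of paralogue groups 10 and 11 are grey throughout.

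The 8 anterior genes, paralogue groups 1 to 3, were detected in 62.5% of their 64 measurements, where a measurement is 1 gene in 1 extract. The 15 central genes, groups 4 to 8, were detected in 54.2% of 120 measurements. The 16 posterior genes, groups 9 to 13, were detected in 13.3% of 128, and no posterior gene was detected in all extracts. By the less strict flag the shares were 75%, 80.8% and 34.4%, so that the central genes came before the anterior ones and the posterior ones stayed last. By the well-above-background flag the posterior genes were last under both labels, with 10 detections of 64 in the DEP ears and 7 of 64 in the control ears. The anterior genes had 20 of 32 in each, and the central genes had 32 of 60 and 33 of 60. Group 2, which consists of Hoxa2 and Hoxb2, was detected in every extract. Group 4 followed with 84.4%, and groups 10 and 11 had no detection in 24 measurements each. Groups 12 and 13 had 31.2% and 9.38%, from Hoxc12 and Hoxc13 alone. Over all Hox genes there were 62 detections of 156 in the DEP ears and 60 of 156 in the control ears. The number of Hox genes detected was 13, 17, 18 and 14 in the DEP ears of arrays 1 to 4 and 17, 17, 15 and 11 in the control ears, and these ranges overlapped. Detection is a property of a probe as well as of a transcript, and the genes were not compared with each other in level.

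**Figure D2:**
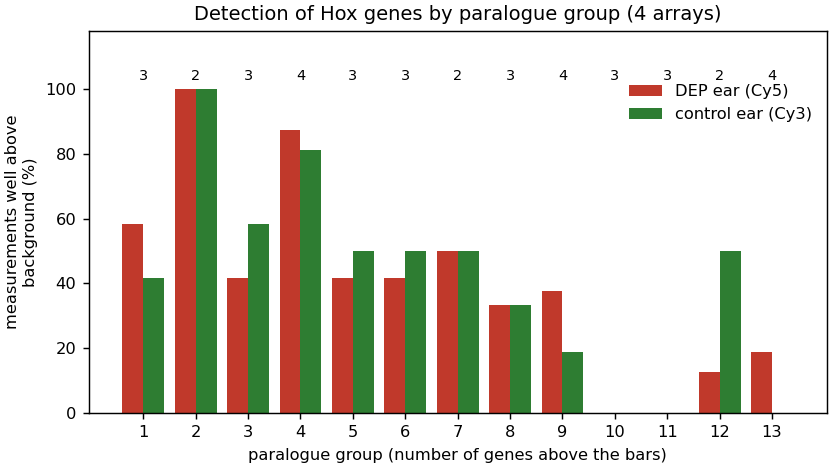
Share of measurements well above background in percent (vertical axis) for each paralogue group from 1 to 13 (horizontal axis), with the DEP ears in red and the control ears in green, over 4 arrays; the number of genes in each group stands above its bars. Group 2 reaches 100% and groups 10 and 11 stay at 0 in both channels.

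The clusters also differed in detection. The Hoxa genes were detected in 60.2% of 88 measurements and the Hoxb genes in 45% of 80. The Hoxd genes followed with 27.8% of 72 measurements and the Hoxc genes with 18.1% of 72, and no Hoxc gene was detected in both channels on all arrays. The genes detected in no extract were Hoxb1, Hoxd3, Hoxc5, Hoxb7, Hoxb8, Hoxc8, Hoxc9, Hoxa10, Hoxc10, Hoxd10, Hoxa11, Hoxc11, Hoxd11, Hoxd12, Hoxa13, Hoxb13 and Hoxd13. The posterior genes that were detected at all were Hoxa9, Hoxb9, Hoxd9, Hoxc12 and Hoxc13. Some Hox loci overlap, among them Hoxa3 with Hoxa4, Hoxa5 and Hoxa6 and Hoxb3 with Hoxb4, and whether a probe also binds the transcript of its neighbour was not tested.

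In the median, Hox promoters held more CpG dinucleotides than those of all genes, but single upstream windows of 250 bases held 2 to 35. The upstream sequences of 4 genes are shown because these genes differ in behaviour across the extracts. Their CpG dinucleotides number 2 in Hoxa2, 3 in Hoxa7 and 5 each in Hoxb4 and Hoxc4. Hoxa2 and Hoxa7 were detected everywhere, with unsteady and with steady ratios. Hoxb4 was detected everywhere with a wide spread, and Hoxc4 was prominent in 1 extract. Each sequence holds the 150 bases upstream of the annotated start on the strand of the gene, from RefSeq in build GRCm38.p6. The positions are chr6:52164832-52164981 on the minus strand for Hoxa2, chr6:52218574-52218723 on the minus strand for Hoxa7, chr11:96318117-96318266 on the plus strand for Hoxb4 and chr15:103034245-103034394 on the plus strand for Hoxc4. Capitals mark the letters CCAAT and TGATNNAT on either strand, the latter being a pattern close to that of Pbx and Hox protein pairs.
Hoxa2: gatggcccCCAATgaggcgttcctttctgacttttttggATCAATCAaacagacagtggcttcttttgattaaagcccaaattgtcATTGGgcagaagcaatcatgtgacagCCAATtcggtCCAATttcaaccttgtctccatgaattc
Hoxa7: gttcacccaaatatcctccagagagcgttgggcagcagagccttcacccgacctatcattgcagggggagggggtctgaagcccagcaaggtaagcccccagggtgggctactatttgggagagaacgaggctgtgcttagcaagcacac
Hoxb4: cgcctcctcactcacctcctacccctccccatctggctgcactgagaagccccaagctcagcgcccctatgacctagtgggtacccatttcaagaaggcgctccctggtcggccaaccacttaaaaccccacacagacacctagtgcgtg
Hoxc4: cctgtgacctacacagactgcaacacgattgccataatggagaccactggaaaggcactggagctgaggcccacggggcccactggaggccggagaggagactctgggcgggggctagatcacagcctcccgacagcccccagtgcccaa

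The Hoxa2 sequence held 4 matches of CCAAT and 1 of TGATNNAT, and the other 3 sequences held none of these letters. Upstream windows of 250 bases were given for 22 Hox genes, 24 windows in all. CCAAT stood on either strand in 58.3% of them against 33.8% of 32851 windows of all genes, and TGATNNAT stood in 16.7% against 7.68%. The letters TATAAA stood in 16.7% against 12.4%. The Hox windows had a median GC content of 58.6% against 52.4%, and a median of 12.5 CpG dinucleotides against 6. A match is a description of the letters and not a binding site.

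Of the 9 Hox genes detected in all extracts, 8 are described in order of paralogue number, first by their dye-normalised signals on arrays 1 to 4. These are not scaled between arrays, and array 1 was brighter, with a median Cy5 signal of 142 over all probes against 94.2 to 107 on the others. For the genes whose extracts are ranked across arrays, values scaled between arrays with limma's Aquantile method are given too. Hoxa2 specifies the hyoid arch, from which the stapes arises, and its loss turns hyoid arch skeleton into a copy of that of the mandibular arch. Its signals were 53.3, 54.6, 59.0 and 51.2 in the DEP ears and 95.6, 41.4, 60.0 and 49.9 in the control ears. The control ear of array 1 had the highest value, but after scaling it lay at 73.4 beside 66.7 and 67.8 on array 3. The log2 ratios of -0.84, 0.40, -0.02 and 0.04 had a mean of -0.11 ± 0.53 (SD, n = 4). Its partner Hoxb2, which acts in the hindbrain and the facial motor neurons, had signals of 50.8, 110, 112 and 116 in the DEP ears and 174, 84.1, 137 and 154 in the control ears. The DEP ear of array 1 was the lowest of all 8 extracts, also after scaling, with 38.9 against 84.7 to 178 in the others. The log2 ratio of Hoxb2 was -1.78, 0.38, -0.28 and -0.41 on the 4 arrays, with a mean of -0.52 ± 0.91 (SD, n = 4) that was -0.10 without array 1 and -0.82 without array 2. With normexp background correction the mean of Hoxb2 was -0.20 after loess and -0.19 after median centring.

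Hoxa3 acts in the pharyngeal arches and is needed for the thymus and parathyroid. Its signals were 50.7, 94.0, 104 and 69.8 in the DEP ears and 117, 50.6, 180 and 70.4 in the control ears, and the groups overlapped throughout. Its log2 ratios of -1.20, 0.89, -0.79 and -0.01 had a mean of -0.28 ± 0.92 (SD, n = 4).

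Hoxa4 and Hoxb4 pattern the cervical vertebrae, and Hoxb4 is also known for expanding blood stem cells. Hoxa4 had signals of 55.6, 51.4, 56.9 and 42.1 in the DEP ears and of 56.8, 43.7, 56.6 and 34.7 in the control ears. These were close on every array, and the log2 ratio was 0.12 ± 0.16 (SD, n = 4). Hoxb4 had signals of 124, 175, 345 and 165 in the DEP ears and of 295, 102, 236 and 151 in the control ears. The DEP ear was lower on array 1 and higher on the other 3, by log2 ratios of -1.25, 0.77, 0.55 and 0.13, and the mean was 0.05 ± 0.91 (SD, n = 4).

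Hoxb6 is known from blood progenitors and the trunk mesoderm. It had signals of 105, 59.6, 220 and 55.0 in the DEP ears and of 234, 38.6, 134 and 102 in the control ears. The DEP ear was lower on arrays 1 and 4 and higher on arrays 2 and 3, by log2 ratios of -1.16, 0.63, 0.72 and -0.90. The mean of Hoxb6 was -0.18 ± 0.99 (SD, n = 4).

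Hoxa7 acts in the trunk and in myeloid progenitors, and beside Hoxa4 it was the steadiest of the Hox genes detected in all extracts. Its signals were 86.0, 87.5, 87.4 and 71.0 in the DEP ears and 85.7, 68.0, 75.1 and 59.9 in the control ears. The DEP ear was higher on all 4 arrays, although on array 1 by a log2 ratio of 0.01 only, and the groups overlapped. The mean log2 ratio was 0.21 ± 0.15 (SD, n = 4), and with normexp background correction it was 0.09 after loess and 0.07 after median centring. Hoxd8, a gene of the trunk axis, had signals of 193, 66.6, 93.1 and 106 in the DEP ears and of 181, 107, 86.9 and 75.4 in the control ears. Both extracts of array 1 were the highest, also after scaling, with 146 and 137 against 67.5 to 122, and the log2 ratio had a mean of 0.00 ± 0.49 (SD, n = 4).

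**Figure D3:**
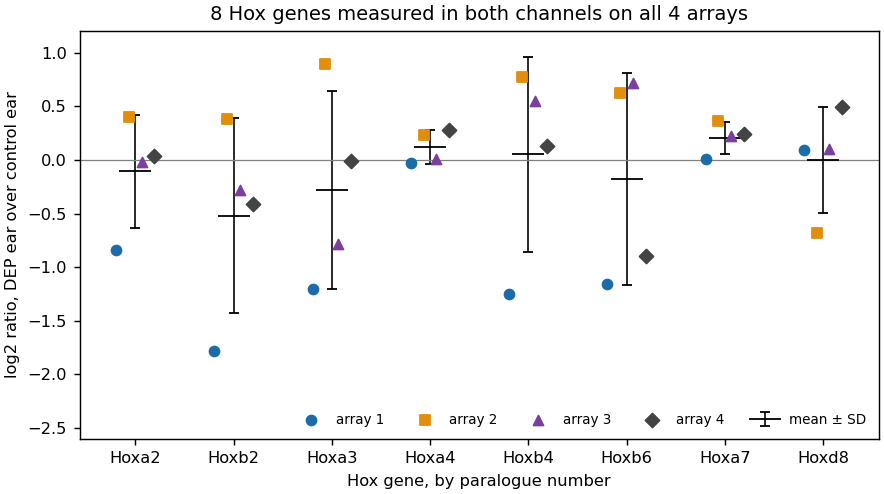
Log2 ratio of the DEP ear over the control ear (vertical axis) for 8 Hox genes detected in both channels on all 4 arrays (horizontal axis, by paralogue number), with 1 symbol per array and a bar for the mean ± SD. The points of Hoxa4 and of Hoxa7 lie close together, and the array 1 point is the lowest in every column except that of Hoxd8.

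None of the 9 genes passed the test of a difference between the ears. With limma, fitted over 31577 probes and adjusted by Benjamini-Hochberg, the mean of Hoxb2 had an adjusted p of 0.474 (SE 0.37), that of Hoxa7 an adjusted p of 0.374 (SE 0.11) and that of Hoxa4 an adjusted p of 0.589 (SE 0.11). The other 6 had adjusted p-values of 0.701 to 0.998. The labels call the arrays biological replicates without saying how many animals stand behind each, so the p-values measure only the spread between these samples. An exact sign-flip test of 4 ratios could not reach a two-sided p below 0.125.

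For each of the 9 genes the range of the ratios over the arrays was wider than the mean difference between the ears, and the SD was larger than that mean for all but Hoxa7. The lowest and the highest ratio of a gene lay over 1 log2 unit apart for 7 of the 9 Hox genes (77.8%), against 27.5% of all 18347 genes detected in both channels on all arrays. For 4 of the 9 (44.4%) they lay over 1.5 units apart, against 14.2% of all such genes. These were Hoxb2 with a spread of 2.16, Hoxa3 with 2.09, Hoxb4 with 2.03 and Hoxb6 with 1.87. Hoxa2 spread over 1.24 and Hoxd8 over 1.17, while Hoxa7 spread over 0.36 and Hoxa4 over 0.31. The median SD of the ratios was 0.60 in the 9 Hox genes and 0.28 in all genes so detected. These comparisons were not matched for signal, which was 34.7 to 345 in the 9 Hox genes. For probes with many spots, the median SD of the log2 ratio between spots of an array was 0.040. It was 0.083 for those under a mean signal of 400.

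Array 1 carried part of this spread. Over all probes its log2 ratios were also the widest, with an SD of 0.97 against 0.63 to 0.69 on the others. On arrays 2 to 4 alone the ratios still ran from -0.79 to 0.89 for Hoxa3, from -0.90 to 0.72 for Hoxb6 and from -0.68 to 0.49 for Hoxd8. The median log2 ratio of the 9 Hox genes was -0.84, 0.40, 0.01 and 0.13 on arrays 1 to 4, while that of all genes detected in both channels on all arrays was -0.01, 0.08, 0.01 and 0.03. On array 1, 7 of the 9 were lower in the DEP ear, and on array 2 only Hoxd8 was. Without array 1 the median of the 9 moved from -0.11 to 0.14. Neuron and cerebellum markers also moved on this array, the latter with median log2 ratios of -2.81, -3.37, -0.13 and 0.24 on arrays 1 to 4 and summed signals of 8759 to 18500 in the DEP ears and 7495 to 128500 in the control ears. The cerebellum markers were lower still on array 2, where 8 of the 9 Hox genes were higher in the DEP ear. The 12 markers of marrow and blood precursors, all detected in every extract, had medians of -0.55, -0.03, 0.51 and 0.30, with summed signals of 253600 to 315900 in the DEP ears and 145400 to 387600 in the control ears. Markers of bone, with medians of -0.24, 0.19, 0.08 and 0.47, and of skeletal muscle, with medians of -0.75, -0.15, 0.79 and 0.79, moved as well, and the part of any of these tissues in the Hox ratios was not tested.

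Among the 13 genes detected in only some extracts, Hoxb5 had the widest ratios. Hoxb5 is a gene of the vagal neural crest, which supplies neurons to the gut and to ganglia of the neck. Its signals were 17.3, 47.1, 448 and 9.99 in the DEP ears and 412, 37.1, 263 and 150 in the control ears. It was detected in the DEP ears of arrays 2 and 3 alone and in all 4 control ears. The log2 ratios of -4.57, 0.34, 0.77 and -3.91 spanned both directions, and their mean of -1.84 ± 2.79 (SD, n = 4) had a limma adjusted p of 0.405. It was -0.69 with normexp and loess, -0.93 without array 1, -1.15 without array 4 and -2.71 without array 3. Since the DEP ears of arrays 1 and 4 were not well above background, the ratios there are limits and not measured sizes.

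Hoxc4 stood out in 1 extract. Its signals were 6.37, 35.6, 48.4 and 15.0 in the DEP ears and 53.3, 19.7, 398 and 15.1 in the control ears. The control ear of array 3 was higher than all others, also after scaling, with 455 against 4.84 to 55.3. Hoxc4 was detected in the DEP ears of arrays 2 and 3 and in the control ears of arrays 1 and 3, so array 3 alone measured both ears. The log2 ratios of -3.06, 0.86, -3.04 and -0.01 had a mean of -1.32 ± 2.04 (SD, n = 4), with a limma adjusted p of 0.417. The mean was -0.59 with normexp and loess, and it ran from -2.04 to -0.73 when 1 array was left out at a time (-0.73 without array 1, -0.74 without array 3, -2.04 without array 2). Hoxc6, another gene of the neck and upper trunk, was detected in that same extract alone. It had a signal of 47.7 there, against 4.66 to 21.9 in the other 7 extracts, and after scaling 55.6 against 5.29 to 16.6.

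The control ear of array 3 also had the highest signals of Dbh and Th, from a list of sympathetic neuron genes drawn up after the data had been seen. Dbh, the enzyme that makes noradrenaline, had a signal of 28470 there and of 2925 in the DEP ear of the same array. In the other 6 extracts Dbh lay between 7.41 and 14.1 and was not well above background, and after scaling the control ear of array 3 lay at 33030 and the 6 extracts of the other arrays between 6.28 and 11.3. All 17 listed sympathetic genes were on the array and 10 were detected in every extract, and the list had median log2 ratios of -0.63, 0.14, -3.26 and 0.12 on arrays 1 to 4. Their summed signals were 4351 to 11200 in the DEP ears and 4981 to 92050 in the control ears. Th, the enzyme that makes the precursor of dopamine and noradrenaline, had signals of 712, 671, 1914 and 469 in the DEP ears and of 1566, 737, 21460 and 481 in the control ears, and after scaling it had 25150 in the control ear of array 3 and 525 to 2243 in the others. A list of 16 sensory ganglion genes, also chosen after the data were seen, had medians of -1.45, -0.50, -0.51 and 0.33, with summed signals of 3591 to 12670 in the DEP ears and 9607 to 16770 in the control ears. Whether ganglia in the dissected tissue bear on the Hox values was not tested.

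**Figure D4:**
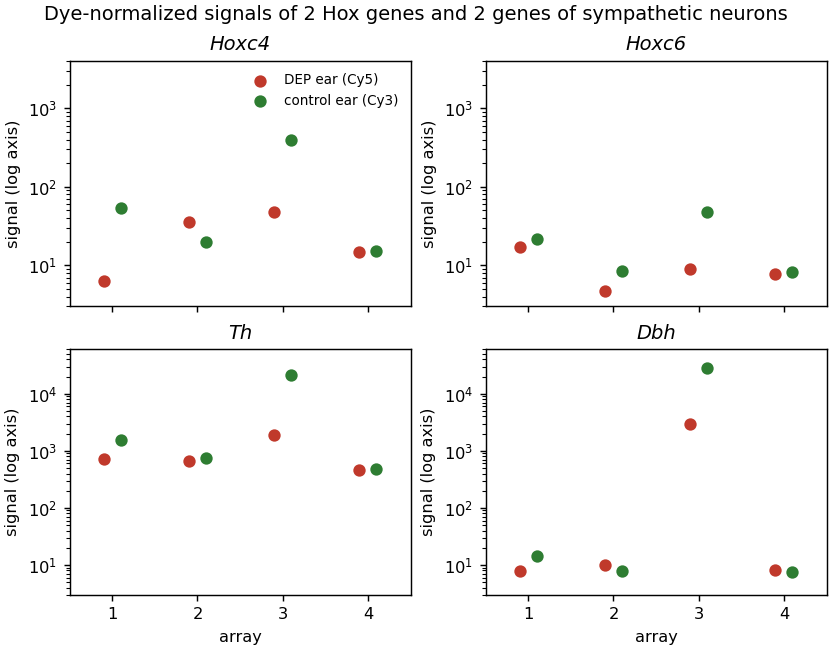
Dye-normalised signals (vertical axes, log scale, arbitrary units) of Hoxc4 and Hoxc6 in the upper row and of Th and Dbh in the lower row, by array (horizontal axes), with the DEP ear in red and the control ear in green. The Hoxc4 signal of 398 and the Dbh signal of 28470 stand in the same extract, the control ear of array 3.

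Among the posterior genes, Hoxc13 controls hair keratins, and it was detected in the DEP ears of arrays 1 to 3 and in no control ear. Its signals were 54.7, 28.6, 24.3 and 16.2 in the DEP ears and 19.3, 17.6, 7.75 and 13.1 in the control ears. The DEP ear was higher on every array, by log2 ratios of 1.50, 0.70, 1.65 and 0.30. The groups overlapped at their edge before scaling, and after it the lowest DEP value of 17.85 and the highest control value of 17.81 lay side by side, both not well above background. The mean of 1.04 ± 0.64 (SD, n = 4) had a limma adjusted p of 0.176 and rests on control signals near background. With normexp it was 0.16 after loess and -0.0014 after median centring. The skin markers had the medians of 2.95, 0.31, 0.07 and -0.85 given above, and their part in the Hoxc13 ratio was not tested.

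Hoxc12, its neighbour in the cluster, ran the other way. Its signals were 28.2, 17.8, 14.7 and 22.6 in the DEP ears and 32.8, 31.3, 45.5 and 48.3 in the control ears, and after scaling 17.1 to 25.4 against 24.8 to 54.3. The groups were apart before the scaling and overlapped at their edge after it. Hoxc12 was detected in all 4 control ears and in 1 DEP ear. The log2 ratios were -0.22, -0.81, -1.63 and -1.09, with a mean of -0.94 ± 0.59 (SD, n = 4) and a limma adjusted p of 0.181. With normexp the mean of Hoxc12 was -0.21 after loess and -0.34 after median centring. The floor of detection differed between the dyes in the way given above, and all of these signals lie near it. Hoxa9, a gene of blood stem and progenitor cells, was detected in all 4 DEP ears and in 2 control ears, with a log2 ratio of -0.15 ± 0.28 (SD, n = 4) that was -0.25 without array 1, -0.04 without array 3 and -0.08 with normexp and loess. A second Hoxa9 probe gave 0.18 ± 0.26. Hoxb9 was detected in both extracts of array 2 alone, with signals of 48.5 in the DEP ear and 68.1 in the control ear. Hoxd9 was detected in the DEP ear of array 1 alone.

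The remaining genes with partial detection were anterior and central. Hoxd4 was detected in 4 DEP ears and 3 control ears and had a log2 ratio of 0.21 ± 0.28 (SD, n = 4). Array 1 carried the Hoxd4 value, with 0.63 against 0.05 to 0.10 on the other arrays, and the mean was 0.07 without it and 0.02 with normexp and loess. Hoxb3 was detected in 1 DEP ear and 3 control ears, and its 2 probes gave mean log2 ratios of -0.77 and -0.14. For the brighter Hoxb3 probe the mean was -0.39 without array 1, -1.20 without array 3, -0.15 with normexp and loess and -0.28 with normexp and median centring. Hoxd1 was detected in 3 DEP ears and 1 control ear, Hoxa5 in 3 and 2, and Hoxa6 in 1 and 1. No gene was detected in all 4 ears of one label and in none of the other.

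Over all Hox genes, 26 had a ratio on at least 3 arrays and were tested, and 13 were not. By limma 0 of the 26 passed at an adjusted p under 0.05, as did 0 of all 25679 genes tested (0%), whose smallest adjusted p was 0.0922. At an unadjusted p under 0.05 there were 5 Hox genes (19.2%), against 18.7% of all genes. They were Hoxa11, Hoxd11, Hoxa13 and Hoxc12, all 4 lower in the DEP ear (8.64% of all genes), and Hoxc13, which was higher (10% of all genes), and 3 of them (Hoxa11, Hoxd11 and Hoxa13) were above background in no extract. With the channels turned, as the doubt about the labels allows, the 4 would be higher (8.64% of all genes) and Hoxc13 lower (10%). Second probes of Hoxa13 and Hoxd11, also above background in no extract, had few ratios, all above 0 as labelled. These were 1.55 and 0.17 on arrays 1 and 3 for Hoxa13 and 0.54 on array 1 for Hoxd11. With the mean of a gene's probes Hoxa13 was -0.27 and Hoxd11 -0.83. A mean ratio past 2-fold was found for 4 Hox genes (15.4%), against 6.74% of all genes. Hoxc4, Hoxb5 and Hoxd11 were lower in the DEP ear (4.37% of all genes) and Hoxc13 was higher (2.38%), and with the channels turned the 3 would be higher (4.37%) and Hoxc13 lower (2.38%). None of the 9 genes detected everywhere was past 2-fold or had an unadjusted p under 0.05, against 3.15% and 12.6% of all genes so detected. With normexp background correction and loess, 0 Hox genes were past 2-fold, against 1.75% of all genes, and 1 had an unadjusted p under 0.05, against 16.1%.

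The mean ratio was below 0 for 17 of the 26 genes (65.4%), against 45.8% of all genes. With the channels turned it would be below 0 for 9 of 26 (34.6%), against 54.2% of all genes. Their median log2 ratio was -0.15, against 0.03 over all genes, and by array it was -0.57, -0.14, 0.05 and -0.01. Among the 9 genes detected everywhere, 5 were lower and 4 higher, and 45.6% of all genes so detected were lower. The 17 became 13 of 27 without array 1 (48.1%, against 46.2% of all genes) and 23 of 26 with normexp background correction and median centring (88.5%, against 39.3% of all genes). With the channels turned these would be 14 of 27 and 3 of 26, and the shares of all genes would turn as well.

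Genes that work with the Hox proteins or control them were taken from lists. Their calls are at an unadjusted p under 0.05, which 8.64% of all genes passed downwards and 10% upwards, and 0 genes of any list passed after adjustment. With the channels turned, the numbers called in the 2 directions change places in every list and medians change sign, and 10% of all genes would pass downwards and 8.64% upwards. The TALE homeodomain cofactors bind DNA together with Hox proteins, and 9 of 10 were detected in both channels on all arrays, against 56.7% of all genes. Of the 10, 2 passed downwards and 0 upwards. One of these, Pbx4, was detected in 1 extract only.

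The Polycomb and trithorax proteins silence the Hox clusters and keep them active, respectively. Of 20 tested, 0 passed downwards and 4 upwards, and their median log2 ratio was 0.18, against 0.03 over all genes. With the channels turned, 4 would pass downwards and 0 upwards, with a median of -0.18 against -0.03. The 4 were the Polycomb genes Cbx8 with 0.41 (SE 0.10) and Ezh2 with 0.35 (SE 0.13) and the trithorax partners Rbbp5 with 0.34 (SE 0.11) and Wdr5 with 0.29 (SE 0.10), each higher on all 4 arrays by the deposited ratios. Their limma adjusted p-values were 0.173, 0.266, 0.219 and 0.238. Of 12 regulators of Hox transcription tested, which include retinoic acid receptors and enzymes, 0 passed in either direction. The Cdx genes, activators of central Hox genes in the embryo, were detected in no extract (Cdx1 and Cdx4) or in 1 extract of each label (Cdx2).

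Of 29 listed symbols for genes beside or within the clusters, 2 of them older names of genes also listed, 13 were on the array and 11 were tested, with 1 called in each direction. Smug1, a DNA repair gene beside the Hoxc cluster, was higher by 0.46 (SE 0.11) with a limma adjusted p of 0.170. Evx2, the homeobox gene at the posterior end of the Hoxd cluster, was the other and was above background in no extract. Mtx2 and Lnpk, the housekeeping neighbours of the Hoxd cluster, had log2 ratios of -0.04 ± 0.10 (SE) and 0.04 ± 0.15 (SE). The head, in front of the Hox domain, is patterned by other homeobox genes. Of 30 of these on the array, 20 were detected in both channels on all arrays, against 9 of 39 Hox genes and 56.7% of all genes. Of 29 tested, 1 passed downwards and 4 upwards. Dlx2, which patterns the jaw arches, was higher by 0.87 (SE 0.27) and Gsc, which is needed for the tympanic ring, by 0.60 (SE 0.18), each on all 4 arrays. Their limma adjusted p-values were 0.212 and 0.206. The calls also included Lhx8 upwards, detected in 7 of 8 extracts, and Otx1 downwards, detected in 1.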

How the data were processed

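The authors quantified 4 two-colour arrays with Agilent Feature Extraction 10.10.1.1. The deposited signals are intensities, background-subtracted and dye-normalized within each array, and the deposited ratio is a log10 ratio of Cy5 over Cy3. Here ratios were converted to log2. Control spots, flagged spots (164 to 274 per array) and spots without a ratio (6179 to 8558 of 43020) were left out. Spots of a probe were averaged, and a probe counted as detected where most of its spots were well above background. Probes were named through RefSeq accessions in the table of assembly GRCm38.p6 (27655 of 39429 probes), for names only. A gene was read from its brightest probe. An intercept was fitted in limma 3.58.1 under R 4.3.3 to probes with ratios on 3 or 4 arrays (prior degrees of freedom 1.98), two-sided. Tested on simulated data for this comparison over 31577 probes, the fit called 74 probes, 4 of them false, and recovered 54 of 100 changed by 2 and 16 of 100 changed by 1 on the log2 scale. Precision is limited by having 4 arrays, and 65.4% to 68.9% of probes were well above background in Cy5 and 59.2% to 68.0% in Cy3. All arrays lay on 1 slide with 1 scan, so no batch could be tested.

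The Hox genes, lists and alternatives were chosen with earlier results of these data known. Values on each array are given for the Hox genes detected in both channels on all arrays, except that some genes are counted but not reported here, and the other Hox genes are given by counts and ranges; those outside this rule with values on each array (Hoxb5, Hoxc4, Hoxc12, Hoxc13) were chosen after their values were seen. From the other lists, genes detected everywhere with an unadjusted p under 0.05 were named, and further names were chosen after their values were seen. The alternatives were normexp (offset 50) with loess or median centring, a deposited table of the same log10 ratios, 2 detection filters, flagged spots or missing ratios kept, eBayes with an intensity trend, ordinary least squares, the mean of a gene's probes, another detection flag, and each array left out. Python 3.11.15, pandas 2.3.3 and matplotlib 3.10.9 were used for tables and figures.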

Additional observations from a re-analysis of the deposited data

Results flagged for a closer look

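In 2 of 27 sets of 4 values, the log2 ratio and both log2 signals of 9 Hox genes, 1 extract lay far from the other 3 by Dixon's ratio of gap to range. Chance alone marks about 1 in 20 such sets. For Hoxb2 in the DEP ears the ratio was 0.9323, with array 1 at a log2 signal of 5.67 and arrays 2 to 4 between 6.78 and 6.86, and it was 0.8449 on signals scaled between arrays. For Hoxa7 in the DEP ears the ratio was 0.919, with array 4 at 6.15 and the other arrays between 6.43 and 6.45. These signals were not scaled between arrays, and after scaling the ratio of Hoxa7 was 0.4777, with array 1 at a signal of 65.8 as the lowest and array 4 at 80.2.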

How the results depend on the processing

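The adjusted test passed 0 Hox genes under every alternative run, and the medians over the Hox genes moved by less than the spread between arrays. Of 4 Hox genes past 2-fold, 0 were left after either normexp alternative (loess 0, median centring 0), 1 with the filter on 1 channel and 0 with the filter on both; without each array in turn there were 3 to 5. Over all genes the share past 2-fold also fell, from 6.74% to 1.75%, 2.36%, 4% and 3.15% in these settings. The 5 genes at an unadjusted p under 0.05 became 1 with normexp and loess, 1 and 0 with the filters and 3 with ordinary least squares, and 4 to 6 without each array. Over all genes the shares were 16.1%, 16.3%, 15.5% and 15.5% in these settings and 11.2% to 18.8% without each array, against 18.7%. The 17 genes lower in the channel labelled DEP became 8 of 13 and 5 of 9 with the filters, which test fewer genes, and 13 to 21 without each array. Over all genes 43.9% and 45.6% were lower with the filters and 46% to 47.8% without each array. The 9 genes detected in both channels on all arrays became 18 with the software's less strict flag (positive and significant), by which 68.5% of all genes were so detected. Without each array the median over all Hox genes ranged from -0.28 to 0.03, and that over the 9 genes from -0.28 to 0.14. Normexp with median centring, which changes both the background and the scaling, moved the median of all genes from 0.03 to 0.12 and brought 2988 genes past the adjusted threshold, none of them a Hox gene.

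Single ratios changed sign as follows, and the cause was not tested. With normexp and loess, Hoxa2 was 0.0169, Hoxa4 -0.0591, Hoxa5 0.0328, Hoxb4 -0.0020 and Hoxd8 -0.0354. With normexp and median centring, Hoxa4 was -0.1311, Hoxc13 -0.0014, Hoxc8 -0.1383, Hoxd4 -0.0657, Hoxd8 -0.0121 and Hoxd9 -0.0482. With the mean of its probes Hoxa9 was 0.0125. Leaving out 1 array at a time, Hoxa2 ranged from -0.28 to 0.14, Hoxa3 from -0.67 to 0.0311, Hoxa5 from -0.50 to 0.53, Hoxb4 from -0.19 to 0.49, Hoxb6 from -0.48 to 0.15, Hoxb9 from -0.0114 to 0.57, Hoxc8 from -0.38 to 0.31, Hoxd1 from -0.34 to 0.0933 and Hoxd8 from -0.16 to 0.23. Both ears of an array stand in 1 ratio, so every fit already compared the ears within an array. The samples form 1 group, and no further pairing was fitted. Signals near background limit the ratios of the genes not detected everywhere.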

Other observations

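Some developmental transcription factors outside the Hox clusters differed widely between the arrays, and they were chosen after their values were seen. Pitx1, a homeobox gene of the mandibular arch and hindlimb, had log2 ratios of 4.22, 1.37, 1.22 and -1.56 on arrays 1 to 4. Egr2, a regulator of hindbrain segments and of Schwann cell myelin, had 4.07, 0.64, 1.03 and -2.36, with signals of 14980 in the DEP ear and 891 in the control ear of array 1. En2, a gene of the midbrain and cerebellum, had -3.97, -4.83, -0.43 and 0.08, and Otx2, a gene of the forebrain and midbrain, had -2.87, -2.57, 0.14 and 0.17. Meis1, a Hox cofactor, had 1.73, 0.48, 0.46 and -0.51. The limma adjusted p-values of these 5 genes ranged from 0.293 (En2) to 0.672 (Egr2).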
